A study of Mus musculus with 6 samples.

Results

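Epithelial cells of the ovary and of its neighbour the oviduct were followed through 9 genes that mark them: the keratins Krt7, Krt8, Krt18 and Krt19, the mesothelial surface genes Upk3b and Msln, and the oviduct genes Ovgp1, Foxj1 and Pax8. The genes were taken by symbol from the deposited count table, where each matched 1 of the 51826 Ensembl gene IDs. In the mouse the ovary is covered by a thin surface epithelium that resembles mesothelium and that is broken and repaired at each ovulation. The oviduct, which lies against the ovary, is lined by ciliated cells, whose programme is run by the transcription factor Foxj1, and by secretory cells, which express the transcription factor Pax8 and release the glycoprotein Ovgp1 around ovulation. Keratins form the intermediate filaments of such simple epithelia, in which a type II keratin (Krt7 or Krt8) pairs with a type I keratin (Krt18 or Krt19).

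The study profiled ovaries of ICR mice, an outbred strain, by bulk RNA sequencing in 3 groups of 2 libraries. The first group carried the model of ovarian hyperstimulation syndrome (OHSS), a response to hormone stimulation with enlarged ovaries and leaky vessels, and received nintedanib (bibf1120), an inhibitor of the VEGF, PDGF and FGF receptor kinases. The second had OHSS without a listed agent, and the third was labelled COH, a name that the labels do not spell out. The labels give no hormone dose, drug dose, age or time of collection, and the protocol mentions neither the oviduct nor the bursa that surrounds the mouse ovary. Whether both libraries of a group are separate animals is not stated, so p-values measure only the spread between these libraries, which may be technical.

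The sequence before the gene start is shown for 4 genes because these were the ones, of 6 with an entry among the RefSeq promoters (GRCm38.p6), that held the letters AGGTCA, which many nuclear receptors recognise, on either strand (TGACCT on the other) within 250 bases upstream of the start. This sequence occurred in 14.0% of 32851 RefSeq promoters of the same length. It lay at -225 in Krt8, -108 in Krt18, -155 in Upk3b and -183 in Ovgp1, counted back from the RefSeq start, and it did not occur in this window of Krt7 or Pax8. Only bases before the first annotated exon are printed, 5′ to 3′ on the gene's own strand, with motif letters in capitals. They cover chr15:102004483-102004592 on the minus strand for Krt8, chr15:102027966-102028179 on the plus strand for Krt18, chr5:136038246-136038495 on the plus strand for Upk3b and chr3:105973552-105973710 on the plus strand for Ovgp1.
Krt8: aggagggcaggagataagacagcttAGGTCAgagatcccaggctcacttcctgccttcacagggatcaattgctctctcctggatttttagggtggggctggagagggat
Krt18: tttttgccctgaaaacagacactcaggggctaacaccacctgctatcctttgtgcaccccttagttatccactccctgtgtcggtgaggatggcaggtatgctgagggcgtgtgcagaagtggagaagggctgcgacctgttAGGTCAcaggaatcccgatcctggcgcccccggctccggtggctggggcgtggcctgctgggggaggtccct
Upk3b: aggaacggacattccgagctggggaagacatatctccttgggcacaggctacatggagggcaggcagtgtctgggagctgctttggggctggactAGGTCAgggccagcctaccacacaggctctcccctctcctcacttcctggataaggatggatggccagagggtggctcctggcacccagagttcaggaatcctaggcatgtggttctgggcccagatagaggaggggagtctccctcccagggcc
Ovgp1: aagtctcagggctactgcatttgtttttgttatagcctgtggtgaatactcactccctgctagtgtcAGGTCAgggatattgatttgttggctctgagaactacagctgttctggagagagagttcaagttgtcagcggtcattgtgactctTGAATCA

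The second run of capitals in the Ovgp1 sequence is a match to TGANTCA, the letters bound by AP-1, at -98, which 6.75% of promoters held. The window of Krt7 held 4 matches to the GC box, read as GGGCGG or as CCGCCC on the other strand, and that of Pax8 held 1, against 32.7% of promoters with at least 1. The 4 in Krt7 lay at -141, -128, -56 and -24. An annotated exon of Krt7 begins upstream of all 4, after the first 82 bases of the window. Pax8 also held the CCAAT box, searched as CCAAT or as ATTGG on the other strand, at -57, as did 33.8% of promoters. None of the 6 held the TATA box, searched as TATAAA or as TTTATA on the other strand, which 12.4% of promoters held. The motifs do not overlap one another in the printed runs, and a match describes the letters alone. Krt8 and Krt18 lie near each other on chromosome 15, which also carries Krt7. Krt19 and Foxj1 are on chromosome 11, Upk3b on 5, Msln on 17, Ovgp1 on 3 and Pax8 on 2.

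Total counts per library ran from 28498435 to 34716751, and 24712 to 25796 genes had at least 1 count. Levels are given as CPM, a gene's counts relative to the TMM-adjusted total of its library, and all 9 genes were among the 19027 that passed the filter on low counts. The counts of the genes differed widely in precision, with 1720 counts for Upk3b in COH replicate 1 and none for Foxj1 or Pax8 in nintedanib replicate 1. In bulk tissue, fewer cells of a type and less RNA per cell cannot be told apart.

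Genes listed as markers of the ovarian surface were counted in every library, and those listed for the oviduct epithelium in part. Bulk counts do not show which cells expressed them. Krt7, Krt8, Krt18, Krt19, Upk3b and Msln had at least 44 counts in every library. Of 12 further markers of surface epithelium and mesothelium, all 12 passed the filter, with mucin Muc16 at 4.13 to 12.8 CPM and the glycoprotein Gpm6a at 4.37 to 13.1 CPM over the 6 libraries. Of 24 genes of motile cilia, 17 passed the filter, among them Ccno at 11.5 to 25.8 CPM, Rfx3 at 13.2 to 16.6 CPM, Cfap43 at 10.99 to 18.4 CPM, Rsph1 at 4.40 to 12.8 CPM, Dnah9 at 4.36 to 7.33 CPM and Ccdc39 at 2.14 to 4.50 CPM. The other 7 did not: Mcidas and Sntn had no count in any library, and Tekt1, Dnah5, Dnaic1, Ccdc113 and Dynlrb2 stayed at or below 0.264 CPM. Some of the 17 that passed were sparsely counted too. Their means over the 6 libraries were 0.256 CPM for Rsph4a, 0.407 for Ccdc40, 0.438 for Drc1, 0.464 for Hydin, 0.518 for Tekt4 and 0.648 for Dnaic2. Of 5 further genes of oviduct secretory cells, Sox17, Emx2 and Muc1 passed, while the transcription factor Pax2 and the ligand Wnt7a stayed at or below 0.315 CPM. Squamous keratins Krt5 and Krt6a had no counts either, while the keratins Krt14, Krt15 and Krt17 had at most 6 counts per library.

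Levels per kilobase used the coding transcript at the best support level in GENCODE M21, of which each gene had 1. On this measure Upk3b was the highest of the 9 genes, with a median level of 7.62 CPM per kb (range over the 6 libraries 3.47 to 13.7). Krt19 followed at 5.38 (2.51 to 7.72) and Krt8 at 5.27 (3.91 to 10.3) CPM per kb. Msln had a median level of 2.68 (1.82 to 5.41) and Krt18 of 2.19 (1.57 to 5.35) CPM per kb. Ovgp1 stood at 0.911 (0.254 to 1.29), Krt7 at 0.681 (0.361 to 1.12), Pax8 at 0.138 (0 to 0.402) and Foxj1 at 0.106 (0 to 0.187) CPM per kb. Krt18 and Ovgp1 did not overlap in their ranges, while every other pair of neighbours in this order did. Compared within each library, Krt8 also stood above Msln in every one. The remaining neighbours did not keep their order across all libraries, so most of the order is not resolved by these libraries. Per kilobase of all exons joined, the medians of Krt19 (4.57), Msln (1.85), Krt7 (0.396) and Pax8 (0.0585 CPM per kb) were lower. Krt8 then stood above Krt19, Krt18 above Msln and Foxj1 above Pax8. The ratio of the highest to the lowest library was between 2.63 for Krt8 and 5.07 for Ovgp1 among the 7 genes counted in every library.

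**Figure D1:**
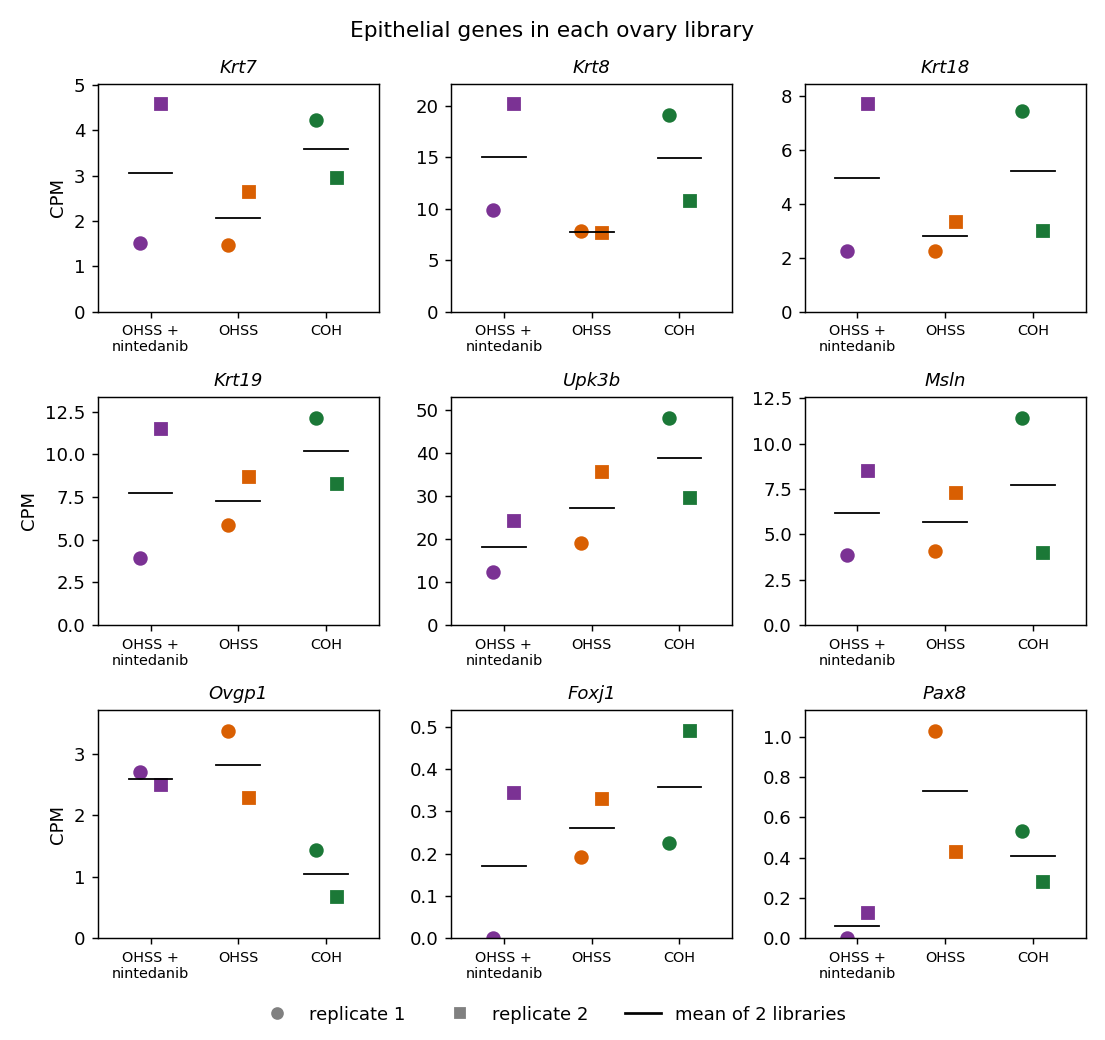
Level of each of the 9 genes in CPM (vertical axes, which start at 0 and differ in scale) in the 6 libraries, by group; circles are replicate 1, squares replicate 2 and lines the mean of both. COH replicate 1 and nintedanib replicate 2 stand highest for Krt7, Krt8, Krt18, Krt19 and Msln, while Ovgp1 is lowest in the COH libraries.

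The keratins varied widely between the libraries of the nintedanib and COH groups. Krt8, the type II keratin of simple epithelia, had 9.88 and 20.2 CPM with nintedanib, 7.87 and 7.65 CPM in OHSS and 19.1 and 10.8 CPM in COH. Both OHSS libraries lay below all others, and the nintedanib and COH libraries overlapped. Its partner Krt18 had 2.25 and 7.69 CPM with nintedanib, 2.25 and 3.33 CPM in OHSS and 7.44 and 2.98 CPM in COH. The high libraries were the same as for Krt8, and all 3 groups overlapped.

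Krt7, a type II keratin of glandular and ductal epithelia, had 1.53 and 4.58 CPM with nintedanib, 1.48 and 2.64 CPM in OHSS and 4.24 and 2.94 CPM in COH. Here too the OHSS libraries were below the COH libraries, and the nintedanib libraries spanned both. Krt19, the smallest type I keratin, had 3.95 and 11.5 CPM with nintedanib, 5.88 and 8.67 CPM in OHSS and 12.2 and 8.30 CPM in COH, with overlap between all groups. The ratio of the higher to the lower nintedanib library was 3 for Krt7, 2.04 for Krt8, 3.41 for Krt18 and 2.92 for Krt19. In each case replicate 2 was the higher.

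Set against COH, OHSS had lower means of the 4 keratins among the 9 genes, and none of the 4 passed the test. The mean level of Krt8 was 7.76 ± 0.157 CPM in the OHSS libraries, against 14.9 ± 5.93 CPM in those of COH (SD, n = 2 each), a log2 fold change of -0.95 (SE 0.43, 95% interval -2.02 to 0.13), and edgeR's quasi-likelihood test gave a Benjamini-Hochberg adjusted p of 0.605. Krt7 stood at -0.80 (SE 0.61), Krt18 at -0.90 (SE 0.72) and Krt19 at -0.49 (SE 0.54) on the log2 scale, with edgeR adjusted p between 0.728 and 0.813. Without COH replicate 1 alone the values were -0.09 for Krt18, -0.19 for Krt19 and -0.51 for Krt7, and without OHSS replicate 1 alone that of Krt7 was -0.43 and that of Krt19 -0.225. Of these 4 keratins Krt8 also had the largest difference between nintedanib and OHSS, at 15.0 ± 7.26 CPM with nintedanib and 7.76 ± 0.157 CPM in OHSS. That is a log2 fold change of 0.95 (SE 0.43, 95% interval -0.12 to 2.02) with an edgeR adjusted p of 0.695, and both nintedanib libraries were above both OHSS libraries. Against COH, the log2 fold change of Krt8 with nintedanib was 0.01 (95% interval -1.05 to 1.06). Without COH replicate 1 and nintedanib replicate 2, an alternative chosen after the data had been seen, the Krt8 difference between OHSS and COH was -0.47 and that between nintedanib and OHSS 0.35 on the log2 scale. The same alternative gave negative values between nintedanib and OHSS for Krt7 (-0.43), Krt18 (-0.31) and Krt19 (-0.88), whose values over all libraries were 0.57, 0.84 and 0.09.

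Counting of the keratins has its own limits. The transcript of Krt8 is 98.6% identical over 941 bases to the pseudogene Krt8-ps, which took 1 to 5 counts per library, and Krt18 is 90.4% identical over 1267 bases to Gm5200. Krt7 overlaps the antisense gene Gm671 by 77 exonic bases and Krt8 the non-coding Gm36026 by 101, and the use of strand in counting is not given in the sources used here.

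Upk3b, a uroplakin-family membrane protein that mesothelium also carries, was the most abundant of the 9 genes and ran highest in COH. It had 12.2 and 24.1 CPM with nintedanib, 19.1 and 35.6 CPM in OHSS and 48.3 and 29.7 CPM in COH. Both nintedanib libraries were below both COH libraries, and OHSS overlapped each of them. The nintedanib mean of 18.2 ± 8.41 CPM against 39.0 ± 13.2 CPM in COH (SD, n = 2 each) came to a log2 fold change of -1.10 (SE 0.47, 95% interval -2.28 to 0.08), with an edgeR adjusted p of 0.525. Upk3b was at -0.51 (SE 0.47, adjusted p 0.771) between OHSS and COH and at -0.59 (SE 0.47, adjusted p 0.797) between nintedanib and OHSS. The first of these was -0.12 without COH replicate 1 and likewise without OHSS replicate 1, and the second was -0.07 without OHSS replicate 2. These comparisons share libraries and are not independent of each other.

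Msln encodes mesothelin, a glycoprotein anchored to the surface of mesothelial cells. It had 3.85 and 8.47 CPM with nintedanib, 4.05 and 7.29 CPM in OHSS and 11.4 and 3.99 CPM in COH, and all groups overlapped. In COH the first library was 2.86 times the second. The log2 fold change of Msln was -0.45 (SE 0.65) for OHSS against COH, 0.12 (SE 0.65) for nintedanib against OHSS and -0.33 (SE 0.64) for nintedanib against COH, with edgeR adjusted p between 0.865 and 0.972. Leaving out COH replicate 1 turned the first of these to 0.51.

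Ovgp1 was the 1 gene of the set that ran higher in both OHSS groups than in COH, and its counts are uncertain. It had 2.70 and 2.49 CPM with nintedanib, 3.37 and 2.28 CPM in OHSS and 1.43 and 0.665 CPM in COH. All 4 libraries of the OHSS groups were above both COH libraries, on 69 to 105 counts against 51 and 19. The log2 fold change was 1.42 for OHSS against COH (SE 0.46, 95% interval 0.26 to 2.57, edgeR adjusted p 0.542) and 1.3 for nintedanib against COH (SE 0.46, 95% interval 0.14 to 2.45, edgeR adjusted p 0.499). Between nintedanib and OHSS it was -0.12 (SE 0.45, adjusted p 0.961).

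Ovgp1 shares 1023 exonic bases on the same strand with Gm42890, a processed transcript in GENCODE M21. Gm42890 had 2 and 66 counts with nintedanib, 17 and 21 in OHSS and 77 and 36 in COH. Ovgp1 therefore took 97.5 and 54.8% of the counts of both genes with nintedanib, 86.1 and 76.7% in OHSS and 39.8 and 34.5% in COH. The 95% Clopper-Pearson intervals of these shares, from pairs and for counting error only, were 86.8 to 99.9% and 42.7 to 66.5% with nintedanib, 74.8 to 93.6% and 61.7 to 88.0% in OHSS and 27.8 to 52.9% and 17.6 to 55.0% in COH. The sum of both genes was 2.77 and 4.55 CPM with nintedanib, 3.92 and 2.97 CPM in OHSS and 3.59 and 1.93 CPM in COH, and here every group overlapped the others. With the counts of Gm42890 added, an alternative chosen after the data had been seen, the log2 fold change was 0.32 for OHSS against COH (SE 0.43, edgeR adjusted p 0.858) and 0.40 for nintedanib against COH (SE 0.43, adjusted p 0.779). Between nintedanib and OHSS it turned to 0.09. How the counter assigned reads in the shared exons is not given in the sources used here.

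**Figure D2:**
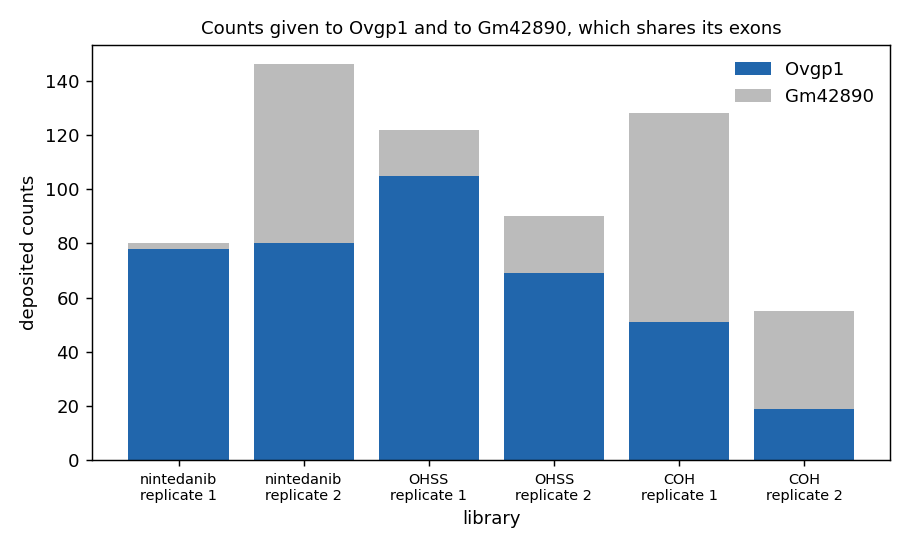
Deposited counts (vertical axis, from 0) given to Ovgp1 (lower part of each bar) and to Gm42890 (upper part) in each of the 6 libraries. Gm42890 holds the larger part of the bar in both COH libraries, and Ovgp1 in the 4 libraries of the OHSS groups, while the sum runs from 55 to 146 counts.

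Foxj1 was close to the limit of detection. It had 0 and 0.343 CPM with nintedanib, 0.193 and 0.330 CPM in OHSS and 0.225 and 0.490 CPM in COH, on 0 to 14 counts. A read pair appears to have been counted as 2 in these files, and the absence in nintedanib replicate 1 allows up to 0.208 CPM, taking 3 pairs (6 counts) as the floor, while the upper end of the exact two-sided 95% interval for 0 pairs is 0.256 CPM. The nintedanib to OHSS ratio of Foxj1 was 0.692 (95% interval 0.189 to 2.33, from pairs, for counting error only), and no difference was detectable at this depth. Its log2 fold changes carried SE of 1.21 to 1.28 and edgeR adjusted p of 0.816 to 0.940.

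Pax8 had 0 and 0.125 CPM with nintedanib, 1.03 and 0.429 CPM in OHSS and 0.534 and 0.280 CPM in COH. Both nintedanib libraries lay below every other library, on 0 and 4 counts, against 32 and 13 counts in OHSS and 19 and 8 in COH. By pairs, the nintedanib to OHSS ratio was 0.0895 (95% interval 0.0102 to 0.363) and the nintedanib to COH ratio 0.156 (0.0172 to 0.685), intervals that cover counting error and not the spread between libraries. The edgeR fit over all genes gave adjusted p of 0.653 and 0.530, with log2 fold changes of -3.42 (SE 1.12) and -2.60 (SE 1.14). The nintedanib side of both rests on the 4 counts of replicate 2. With 1 library left out at a time they ran from -7.50 to -2.515 and from -6.68 to -1.69. OHSS and COH overlapped, with a log2 fold change of 0.82 (SE 0.92, adjusted p 0.818) that was 0.08 without OHSS replicate 1. Pax8 overlaps the non-coding Gm13415 by 367 exonic bases, and that gene took at most 3 counts per library.

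**Figure D3:**
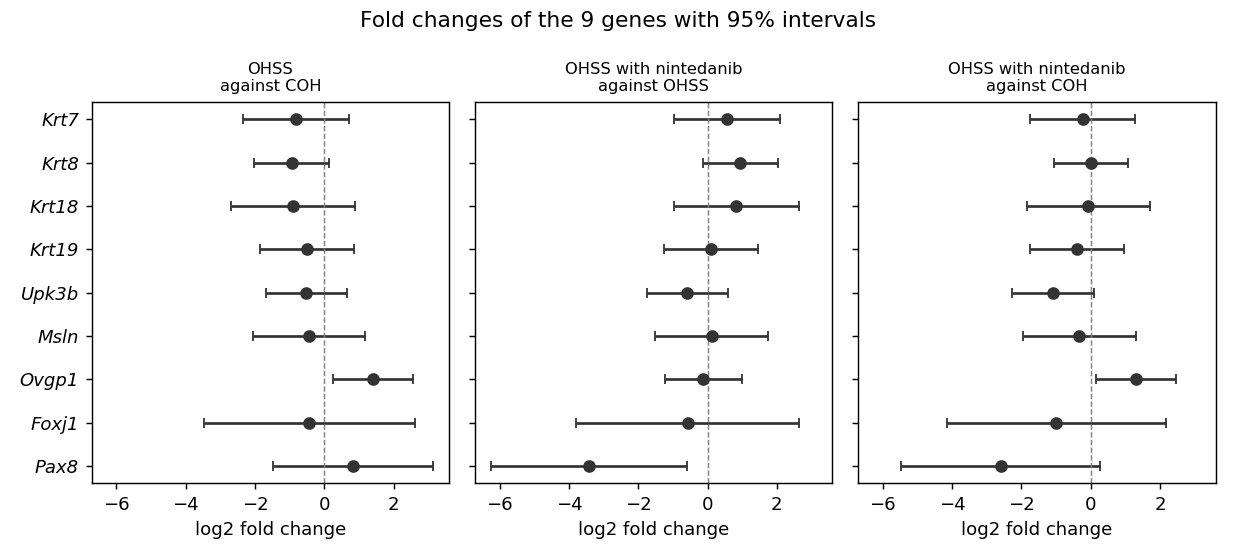
Log2 fold change (horizontal axis) of each gene in the 3 comparisons with its 95% interval from edgeR, positive where the group named before "against" is higher. Only the intervals of Ovgp1 against COH in both panels and of Pax8 between nintedanib and OHSS lie wholly to one side of 0, and none of the 9 genes passed after adjustment over all 19027 genes.

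OHSS against COH asks what the syndrome model changes in the ovary. None of the 9 genes passed edgeR's test at a Benjamini-Hochberg adjusted p below 0.05, where 0.0105% of all 19027 genes tested did (2 genes). DESeq2 and limma voom called none of the 9 either, with 1.83 and 0% of all genes called. Before adjustment 1 of the 9 was below 0.05, Ovgp1, against 8.82% of all genes. Krt7 and Krt8 lay wholly below COH and Ovgp1 wholly above, which is 3 of 9 genes without overlap between the groups, where 44.1% of all genes had none (22.9% lower, 21.2% higher). The share of the 9 genes was not above that background. The median log2 fold change of the 9 genes was -0.49, with 7 lower and 2 higher, beside a median of -0.003 over all genes.

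Nintedanib given to OHSS mice against OHSS alone asks what the drug changes in the model. None of the 9 genes was called by edgeR, against 0.00526% of all genes (1 gene), and none by DESeq2 or voom, against 1.12 and 0.00526%. Pax8 was the 1 gene below 0.05 before adjustment, where 7.42% of all genes were. Krt8 lay wholly above and Pax8 wholly below OHSS, 2 of 9 genes without overlap, against 36.1% of all genes (19.2% higher, 16.9% lower). The median log2 fold change was 0.09, with 5 genes higher and 4 lower, and 0.01 over all genes.

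Nintedanib against COH sets the treated model beside the COH ovary. No member was called by edgeR, against 0.0263% of all genes (5 genes), nor by DESeq2 or voom, against 2.29 and 0.0105%. Ovgp1 was again the 1 gene below 0.05 before adjustment, against 9.70% of all genes. Upk3b and Pax8 were wholly below COH and Ovgp1 wholly above, 3 of 9 genes, where 45.0% of all genes showed no overlap (22.7% lower, 22.3% higher). The median was -0.33, with 7 lower and 2 higher, beside -0.001 over all genes. The 3 comparisons share libraries, so these counts are not independent.

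The spread between libraries of a group was wide for these genes. The median absolute log2 difference between the libraries of a group was 1.53 with nintedanib, 0.62 in OHSS and 0.83 in COH for the 9 genes, beside 0.27, 0.26 and 0.20 over all genes tested. With nintedanib 7 of 9 genes differed by more than 1 on the log2 scale between the libraries, where 13.9% of all genes did. Among the 7 were Foxj1, on 0 and 11 counts, and Pax8, on 0 and 4, and low counts widen such differences. The figures over all genes were not matched for count level. In OHSS 1 of 9 did so (11.7% of all genes) and in COH 3 of 9 (8.56%). Replicate 1 was the higher nintedanib library for Ovgp1 alone, and the higher COH library for 8 of the 9, Foxj1 being the exception. Over the 6 libraries, the root mean square deviation of a gene from its own mean log2 CPM was 0.56 to 1.31 for the 9 genes, beside a median of 0.26 over all genes tested. The sparsely counted Foxj1 (1.00) and Pax8 (1.31) had the largest values.

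Among the keratins, Upk3b and Msln, 5 of 6 had their highest levels in COH replicate 1 and nintedanib replicate 2, Upk3b being the exception with OHSS replicate 2 second. The summed level of these 6 genes was 33.7 and 76.5 CPM with nintedanib, 40.6 and 65.1 CPM in OHSS and 102.7 and 58.6 CPM in COH. Likeness was measured as the root mean square difference between centred log2 CPM profiles over the 6 libraries, a description without a test, in which 0 means the same profile. Krt7 and Krt19 were the closest pair at 0.22, followed by Krt7 and Krt18 at 0.27, Krt18 and Msln at 0.31, and Krt8 and Krt18 at 0.32. Upk3b was closest to Krt19, at 0.32, and stood at 0.68 from Krt8. Ovgp1 stood 0.97 to 1.54 from each of the others.

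Of 8 oocyte markers, 7 peaked in the same libraries as the keratins. The sum of 8 oocyte genes, the egg coat genes Zp1, Zp2 and Zp3, the growth factors Gdf9 and Bmp15, and Figla, Nlrp5 and Ooep, was 175 and 320.9 CPM with nintedanib, 181.1 and 223 CPM in OHSS and 327.8 and 230.5 CPM in COH. The exception was Figla, with 0.485 and 1.03 CPM with nintedanib, 0.578 and 0.462 CPM in OHSS and 0.983 and 1.37 CPM in COH. All 8 had a lower mean in OHSS than in COH (median log2 fold change -0.51), and none passed the test. The profile of the median oocyte gene stood 0.30 from Krt8, 0.29 from Krt7, 0.27 from Krt19 and 0.41 from Krt18. The median gene of the surface and mesothelial list stood farther from Krt8 (0.56), Krt7 (0.43) and Krt18 (0.57), and at 0.28 from Krt19. Other lists were near as well: the median junction gene of epithelia stood 0.37 from Krt7, 0.395 from Krt8, 0.46 from Krt18 and 0.265 from Krt19. For Upk3b the median gene of the surface list stood at 0.26 and that of the oocyte list at 0.45, but by the summed level of each list the distances were 0.455 and 0.454.

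Cells switch on immediate early genes within minutes of a stimulus. Their median gene was below its mean log2 CPM in both OHSS libraries and in nintedanib replicate 1. Junb, however, had 102.6 CPM in OHSS replicate 2 and 99.8 CPM in COH replicate 1. The median gene was highest in COH replicate 2 (0.712 above its mean). There Krt8 (-0.113) and Krt18 (-0.338) were below their means and Krt7 (0.148) and Krt19 (0.078) above. This median gene stood 0.37 from Krt7, 0.45 from Krt8, 0.59 from Krt18 and 0.41 from Krt19. The sum of Fos, Fosb, Ier2, Egr1 and Junb was 351.5 and 792.1 CPM with nintedanib, 308.4 and 431.6 CPM in OHSS and 604.9 and 874.7 CPM in COH. All 5 had a lower mean in OHSS than in COH (median log2 fold change -0.93), 3 of them with an edgeR p below 0.05 before adjustment and none after it. DESeq2 called those 3, Fos, Fosb and Ier2, with adjusted p of 0.041, 0.0405 and 0.0356. The part of the oocyte, junction or immediate early signal in the keratin levels was not tested.

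**Figure D4:**
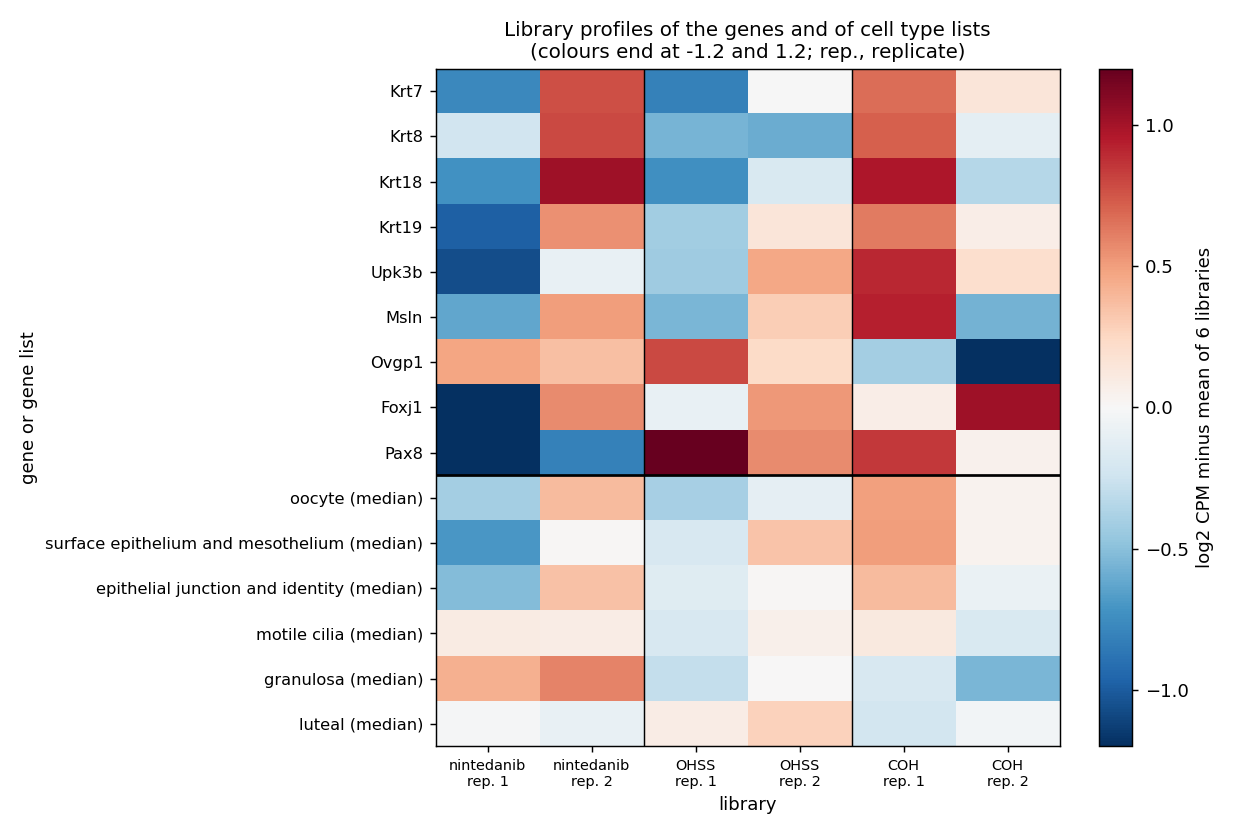
Log2 CPM minus its mean over the 6 libraries (colour; red higher, blue lower) for the 9 genes (upper rows) and for the median gene of 6 marker lists, members left out (lower rows), in each library (columns). The keratin rows and the oocyte row are red in nintedanib replicate 2 and COH replicate 1, the Upk3b row follows the surface epithelium row, and the Ovgp1 row is blue in the COH libraries.

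The 3 nearest profiles among the 15518 other genes with a mean of at least 1 CPM differed by gene. For Krt8 they were Oog2, Fbxw20 and Speer5-ps1, at 0.10, 0.12 and 0.13. For Krt7 they were the adhesion receptor Adgrg2 (0.14), the oocyte kinase Wee2 (0.15) and the polarity protein Crb3 (0.20), and for Krt18 Adgrg2 (0.15), Fbxw19 (0.18) and the oocyte secreted protein Oosp1 (0.18). Krt19 was nearest to the DNA demethylase Tet1 (0.15), Tmem178 (0.15) and Patl2 (0.16). Upk3b was nearest to Tmem151a (0.14), Smtnl2 (0.16) and the surface marker Gpm6a (0.19), and Msln to Zfp846 (0.11), Gm30238 (0.15) and Acvr2b (0.16). Ovgp1 had A930004J17Rik (0.11), AC154347.1 (0.18) and the phosphodiesterase Pde4d (0.22) nearest. For the sparsely counted genes the nearest profiles were farther off, at 0.30 to 0.32 for Foxj1 (Apol7b, Mov10l1 and Ccdc137) and 0.49 to 0.70 for Pax8 (Foxp2, Adcyap1 and Mybpc1). No test is attached to these distances.

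None of the other genes listed with the 9 was called by edgeR in any comparison. Of 12 surface and mesothelial markers, 9 had a lower mean in OHSS than in COH (median log2 fold change -0.26), 8 a lower mean with nintedanib than in OHSS (-0.44) and 9 a lower mean with nintedanib than in COH (-0.61). Wt1, a transcription factor of mesothelium that granulosa cells also express, ran highest in OHSS, with 40.8 and 34.7 CPM with nintedanib, 61.7 and 67.0 CPM in OHSS and 38.2 and 31.9 CPM in COH. Both OHSS libraries were above all others. The log2 fold change of Wt1 was 0.88 for OHSS against COH (SE 0.15, edgeR adjusted p 0.425) and -0.77 for nintedanib against OHSS (SE 0.15, edgeR adjusted p 0.605), while DESeq2 called both (adjusted p 0.00046 and 0.00636). Bnc1, the mesothelial zinc finger protein basonuclin, had a mean of 3.57 ± 0.963 CPM in the OHSS libraries, against 7.59 ± 2.61 CPM in COH (log2 fold change -1.09, SE 0.40, edgeR adjusted p 0.547). Aldh1a2, which makes retinoic acid, averaged 138.5 ± 9.04 CPM with nintedanib and 247.1 ± 0.701 CPM in COH (log2 fold change -0.84, SE 0.21, edgeR adjusted p 0.469, DESeq2 adjusted p 0.0302). Efemp1, a matrix protein named after its values were seen, stood apart in 1 library, with 26.7 and 161.8 CPM with nintedanib, 47.0 and 58.4 CPM in OHSS and 42.9 and 46.7 CPM in COH.

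In the keratin family 7 of 13 genes passed the filter. Among them were Krt7, Krt8, Krt18 and Krt19, already described above, and only Krt10, Krt20 and Krt23 were further genes. For OHSS against COH the log2 fold change was -0.29 for Krt10 (SE 0.25, edgeR adjusted p 0.759) and -0.70 for Krt20 (SE 1.04, adjusted p 0.869). Of the 7 genes, 6 had a lower mean in OHSS than in COH, where 9593 of all 19027 genes tested were lower. The exception was Krt23, with 1.73 and 0.374 CPM with nintedanib, 3.34 and 1.29 CPM in OHSS and 0.534 and 0.350 CPM in COH. Its log2 fold change for OHSS against COH was 2.37 (SE 0.88, edgeR adjusted p 0.550). Of 6 uroplakin genes 3 passed the filter, Upk1a, Upk1b and Upk3b, and all 3 had a lower mean with nintedanib than in OHSS or in COH. Upk1b had 0.971 and 2.24 CPM with nintedanib, 1.67 and 2.84 CPM in OHSS and 2.87 and 1.72 CPM in COH, a profile 0.27 from that of Upk3b. Muc16 stood 0.24 from it.

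Motile cilia genes showed no common direction, with 9 of 17 higher in OHSS than in COH (median 0.01), 8 of 17 higher with nintedanib than in OHSS (-0.003) and 8 of 17 higher with nintedanib than in COH (-0.06). Hydin, a protein of the ciliary central apparatus, had 0.277 and 0.249 CPM with nintedanib, 0.835 and 0.824 CPM in OHSS and 0.281 and 0.315 CPM in COH. Both OHSS libraries were above all others, and its log2 fold changes of 1.47 for OHSS against COH (SE 0.43) and -1.64 for nintedanib against OHSS (SE 0.44) had edgeR adjusted p of 0.533 and 0.653. Tekt4 was at -1.81 (SE 0.51, edgeR adjusted p 0.533) for OHSS against COH, Ak7 at 0.94 (SE 0.29, adjusted p 0.653) for nintedanib against OHSS and Tppp3 at 0.74 (SE 0.25, adjusted p 0.494) for nintedanib against COH.

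Of the oviduct secretory list 3 of 5 genes passed the filter. Sox17, which endothelium also expresses, had 22.5 and 15.5 CPM with nintedanib, 23.8 and 17.8 CPM in OHSS and 19.2 and 22.8 CPM in COH. Emx2 had 12.03 and 15.9 CPM with nintedanib, 8.64 and 16.0 CPM in OHSS and 19.4 and 14.9 CPM in COH, and Muc1 0.381 and 2.30 CPM, 1.25 and 1.58 CPM, and 2.33 and 1.295 CPM in the same groups. All groups overlapped for each of these 3 genes. Among 18 junction and identity genes of epithelia 13 passed the filter, with medians of 0.03 for OHSS against COH and -0.06 for nintedanib against OHSS. Epcam, the pan-epithelial adhesion molecule, had 1.46 and 5.64 CPM with nintedanib, 2.67 and 5.18 CPM in OHSS and 3.88 and 3.08 CPM in COH, and E-cadherin (Cdh1) had 1.11 and 4.89 CPM, 2.38 and 0.989 CPM, and 2.50 and 1.61 CPM in the same groups. Both were higher in the second nintedanib library than in the first.

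Markers of other ovarian cells also differed between the groups, and their part in the levels of the 9 genes was not tested. The summed level of 9 granulosa genes was 5137 and 5015 CPM with nintedanib, 3269 and 3302 CPM in OHSS and 3039 and 3005 CPM in COH. That of 5 endothelial genes was 513.2 and 534.6 CPM with nintedanib, 375.9 and 427.2 CPM in OHSS and 484.9 and 488.1 CPM in COH. For both sums no group overlapped another. In a comparison, 36.1 to 45.0% of single genes showed no overlap, a figure not matched to sums or to all comparisons at once. Of the endothelial genes, Cdh5 and Tie1 kept the order of the sum without overlap. Pecam1 was highest in OHSS replicate 2 (111.9 CPM), and Cldn5 in the COH libraries (72.9 and 73.2 CPM). Kdr overlapped between OHSS (85.85 and 76.3 CPM) and COH (94.03 and 81.45 CPM). Inha held the largest part of the granulosa sum. It had 3555 and 2876 CPM with nintedanib, 2291 and 2086 CPM in OHSS and 1960 and 2154 CPM in COH, so for Inha alone OHSS and COH overlapped. Single genes of these lists are named where the edgeR p was below 0.05 before adjustment, and each had an edgeR adjusted p of 0.292 or more. For OHSS against COH these were the granulosa genes Amh (log2 fold change -0.75) and Inhba (0.997), the luteal genes Star (1.23) and Sfrp4 (0.77), the collagen Col1a1 (-0.39), Synpo2 of smooth muscle (0.58), the endothelial genes Cldn5 (-0.64) and Tie1 (-0.34), and Fos (-2.07), Fosb (-2.08) and Ier2 (-0.93). For nintedanib against OHSS they were Inha (0.555), Inhba (1.12), Cyp19a1 (1.19), Nr5a2 (0.75) and Fst (1.03) of granulosa cells, Sfrp4 (-1.03), Synpo2 (-0.59), the endothelial genes Cdh5 (0.59), Cldn5 (0.355) and Tie1 (0.465), and Fos (2.02) and Fosb (2.42). For nintedanib against COH they were the granulosa genes Fshr (1.55), Inha (0.645), Inhba (2.12), Cyp19a1 (2.02), Hsd17b1 (0.64), Nr5a2 (0.77) and Fst (1.25), the luteal gene Star (0.975), the steroid enzyme gene Cyp17a1 of theca cells (2.25), Cdh5 (0.34) and the T cell gene Cd3e (-1.54). Some of these genes were called by DESeq2. In OHSS against COH its adjusted p was 0.0078 for Cldn5, 0.03 for Star, 0.0356 for Ier2, 0.0405 for Fosb and 0.041 for Fos. In nintedanib against OHSS it was 0.0115 for Fosb and 0.0304 for Tie1. In nintedanib against COH it was 1.8e-07 for Inhba, 5.8e-05 for Cyp19a1, 0.012 for Inha, 0.0126 for Fst and Cyp17a1 and 0.0318 for Nr5a2.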

How the data were processed

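Ovarian RNA of 6 libraries was analysed from 1 table of raw gene counts as deposited. Per the submitters' processing notes the tools were HISAT2 2.1.0, StringTie 1.3.3b and Trimmomatic 0.36 and the build mm8, with no roles given. The counter, the annotation release and the strand setting were not given in the sources used here. Per the deposited read summaries, counts came to 144.2 to 148% of read pairs (72.1 to 74.0% of reads). A pair thus seems to count as 2, and counting intervals and floors were taken from pairs and cover counting error only. Groups and replicate numbers came from the sample titles.

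Genes were filtered with filterByExpr (minimum count 10, 19027 kept) and libraries scaled by TMM (factors 0.961 to 1.03) in edgeR 4.0.16 (R 4.3.3). Groups were compared by edgeR's quasi-likelihood test (F, two-sided), fitted to all 3 groups at once (3 residual and 2.41 prior degrees of freedom), adjusted by Benjamini-Hochberg over all genes tested, with calls at an adjusted p below 0.05. Standard errors were derived from F. DESeq2 1.42.0, limma 3.58.1 voom, other scalings and filters, a replicate block, the 2 groups alone, halved counts and left-out libraries were alternatives, and the fitting was tested on simulated data. Lengths and overlaps came from GENCODE M21, similar transcripts from BLAST 2.17.0 and promoters from RefSeq GRCm38.p6, matched by symbol for 6 of 9 genes. Neighbouring profiles used log2 CPM with a prior count of 2.

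All 9 genes are named whatever their p. From the 15 further lists (132 other genes), members with an edgeR p below 0.05 before adjustment are named, otherwise up to 3 of the highest mean CPM, and beside these the 3 nearest profiles of each gene. Other list genes were named after their values were seen, or as defining markers. The genes and lists were chosen with earlier results of these data known.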

Additional observations from a re-analysis of the deposited data

How the results depend on the processing

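None of the 9 genes was called in any comparison under any alternative run. Of 449 recomputed log2 fold changes of these genes, 419 kept their direction and 30 did not. Genes called over the whole table were few and moved with the tool. For OHSS against COH the main count was 2, and it was 4 with no filter, 348 with DESeq2, 0 with voom, 1 with the replicate block, 0 in a fit of only those groups and 0 to 2 with 1 library left out. For nintedanib against OHSS it was 1, and 2 with no filter, 213 with DESeq2, 0 with the block, 0 in a fit of only those groups and 0 to 30 with 1 library left out. For nintedanib against COH it was 5, and 436 with DESeq2, 2 with voom, 2 with the block, 2 in a fit of only those groups, 3 with halved counts and 0 to 53 with 1 library left out. The counts of 30 and 53 came without nintedanib replicate 1. Without both COH replicate 1 and nintedanib replicate 2 all 3 counts were 0.

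Libraries of the same replicate number showed no shared shift: differences between libraries of a group correlated at -0.002, 0.048 and -0.001 between groups. These correlations cannot show whether such libraries were collected or processed together. With the block, Krt8 for nintedanib against COH turned to -0.008, and no other gene of the 9 changed direction. The same value was -0.01 with no filter, -0.035 with voom and -0.12 without both COH replicate 1 and nintedanib replicate 2. For nintedanib against OHSS, voom turned Krt19 to -0.052, and leaving out both libraries gave -0.43 for Krt7, -0.31 for Krt18, -0.88 for Krt19 and -0.56 for Msln. Leaving them out gave 0.51 for Msln in OHSS against COH, and adding Gm42890 gave 0.089 for Ovgp1 in nintedanib against OHSS. Apart from that alternative, which adds the counts of an overlapping gene, the cause was not tested.

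With 1 library left out at a time, where the remaining library of a group is assumed to vary like the others, ranges crossed 0 for these genes. In OHSS against COH they were -1.01 to 0.51 for Msln and -0.90 to 0.22 for Foxj1. In nintedanib against OHSS they were -0.43 to 1.15 for Krt7, -0.31 to 1.46 for Krt18, -0.88 to 0.66 for Krt19, -0.56 to 0.61 for Msln, -0.37 to 0.17 for Ovgp1 and -6.03 to 0.38 for Foxj1. In nintedanib against COH they were -1.23 to 0.35 for Krt7, -0.60 to 0.48 for Krt8, -1.21 to 0.74 for Krt18, -1.37 to 0.17 for Krt19 and -1.005 to 0.625 for Msln. In OHSS against COH the ranges of Krt18 (-1.41 to -0.09), Krt19 (-0.81 to -0.19), Upk3b (-1.04 to -0.12) and Pax8 (0.08 to 1.37) came near 0. Foxj1 and Pax8 did not pass the filter of 1 CPM or the one on halved counts and have no value there. Depth limits these 2 genes most, at 0 to 14 and 0 to 32 counts per library.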
